A study of Mus musculus with 4 samples.

Results

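The 9 genes described here belong to striated muscle: the fast skeletal muscle genes Tnnc2 and Myl1, the cardiac genes Nppb, Myh6 and Hrc, and Cox7a1, Cox8b, Ldb3 and Ak1, which serve energy supply and the sarcomere in several kinds of muscle. They are 9 of 13410 genes with a named probe on the array, each with 1 probe, and all 9 are among the 8384 genes measured in 3 or more mice. They were selected on their mean log ratios in these same arrays, most of them far below 0, so their own values are described here without a test. Tests are given only for other genes.

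Lung RNA of 4 A/J mice treated with bleomycin was measured, 1 mouse per 2-colour array, and every array had the same pool of control A/J lung RNA in its other channel. All RNA was amplified. A/J is an inbred strain, and bleomycin, which breaks DNA, is widely used to injure the lungs of rodents. The sources used here give neither dose, route, time, age and sex nor the number of control mice in the pool. All values are log ratios between a treated mouse and the shared pool, read as log2, and each array was centred on its median.

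Which RNA forms the numerator is not stated. The labels name the treated mouse before the pool; if that order is the ratio's, a value below 0 means less transcript in the treated lung. With the pool as numerator every sign would turn, and sizes and p-values would stay. The pool is common to all arrays, so it shifts a gene by the same amount on every array. A value shared by all arrays therefore cannot be split between the treated mice and the pool. Differences between arrays belong to the mice or their arrays. In whole tissue, fewer cells of a type and less RNA per cell cannot be told apart. The arrays had values for 9427 to 12136 of 17280 spots, and log ratios across genes correlated most between mice 1 and 2 (Pearson 0.71) and between mice 3 and 4 (0.85), against 0.43 to 0.55 for the other pairs. Levels are not part of these values, so whether lung markers were abundant could not be judged. Of 6 lung epithelial markers tested, the surfactant gene Sftpa1 passed limma above 0 (1.28, adjusted p = 0.00653) and the water channel gene Aqp5 below it (-0.35, adjusted p = 0.0423, lost whichever mouse was left out), and Ager (1.16), Sftpc (0.46), Sftpd (0.19) and Scgb1a1 (-0.15) did not pass.

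Striated muscle contracts when calcium released from the sarcoplasmic reticulum binds troponin C and frees actin for myosin. Fast skeletal, slow skeletal and cardiac fibres build this machinery from different members of the same gene families, so that single genes can tell the fibre types apart. Cardiac muscle extends into the walls of the pulmonary veins in mice, while skeletal muscle lies around the lung in the chest wall and diaphragm. Brown fat is rich in mitochondria and shares several isoforms of the respiratory chain with muscle.

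The fast skeletal genes lay far below 0 on every array with a value. Tnnc2, the calcium-binding troponin subunit of fast fibres, had log ratios of -4.96, -5.51 and -4.24 in mice 1, 2 and 4, and no value in mouse 3. Its mean of -4.90 ± 0.64 (SD, n = 3) was the lowest of all 8384 genes, a 29.9-fold difference if the logarithm has base 2. Myl1, an essential light chain of fast myosin, had -3.86, -2.49, -2.80 and -2.49 in mice 1 to 4. Its mean of -2.91 ± 0.65 (SD, n = 4) ranked next. Mouse 1 was lowest for Myl1, and the other mice lay close together. Tnnc2 and Myl1 are the only members below -1 on every array with a value, which held for 0.107% of all genes tested. They were chosen for low means in these same arrays, so this is not independent of that choice.

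The cardiac genes did not behave alike. Nppb encodes brain natriuretic peptide, a hormone that heart muscle releases under stretch, and had -2.68, -0.43, -3.38 and -1.99 in mice 1 to 4. Hrc, a calcium-binding protein in the lumen of the sarcoplasmic reticulum, had -2.68, -0.84, -3.24 and -1.92. Both were lowest in mouse 3 and closest to 0 in mouse 2, with means of -2.12 ± 1.26 and -2.17 ± 1.04 (SD, n = 4). Myh6, the main myosin heavy chain of the adult mouse heart, had -1.64, 0.97, -0.47 and 0.45. It lay on both sides of 0, lowest in mouse 1 and highest in mouse 2, and its mean of -0.17 ± 1.14 (SD, n = 4) fell within the spread between mice. Nppb minus Myh6 on the same array was between -2.91 and -1.04, so Nppb was the lower on all 4 arrays. In mouse 2 Myh6 lay at the percentile 98.6 of all genes on that array, while Nppb lay at 9.87.

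Among the genes shared by muscles, Cox7a1 and Cox8b followed the course of Nppb and Hrc. Cox7a1, the heart and muscle isoform of a subunit of cytochrome c oxidase, had -2.63, -0.65, -3.52 and -1.84 in mice 1 to 4. Cox8b, the muscle isoform of another subunit of that enzyme, had -2.88, -0.31, -3.40 and -2.00. Both had their lowest value in mouse 3 and their highest in mouse 2, with means of -2.16 ± 1.22 and -2.15 ± 1.36 (SD, n = 4). Ldb3, a protein of the Z disc that anchors thin filaments, had -2.60, -0.81, -1.81 and -1.48, lowest in mouse 1. Ak1, the cytosolic adenylate kinase that balances adenine nucleotides in muscle and other tissues, had -1.73, -1.40, -1.74 and -0.77. For Ak1 mouse 4 and not mouse 2 was closest to 0. The means of Ldb3 and Ak1 were -1.67 ± 0.74 and -1.41 ± 0.46 (SD, n = 4).

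**Figure D1:**
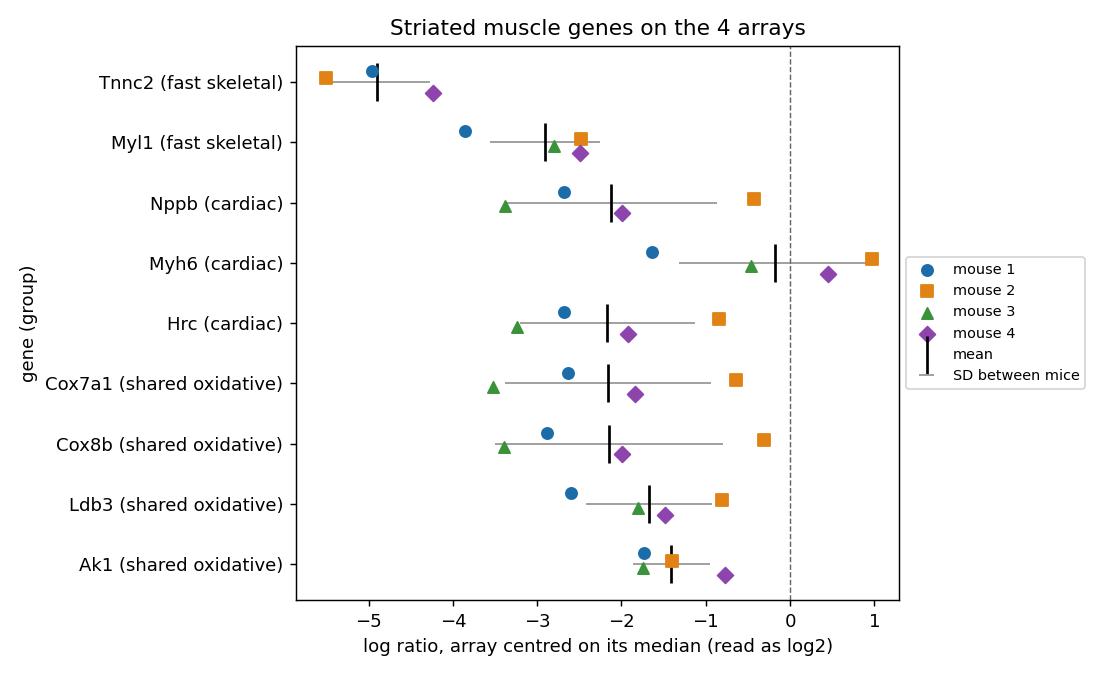
Log ratio of each of the 9 genes (horizontal axis, centred per array and read as log2) in mice 1 to 4, with the mean as a black bar and the SD between mice as a grey line. Tnnc2 and Myl1 lie below -2 on every array with a value, Nppb, Hrc, Cox7a1 and Cox8b are closest to 0 in mouse 2, and Myh6 spans 0.

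The 8 members other than Myh6 were below 0 on every array with a value, which held for 22.3% of all genes tested, and the same 8 had a mean below -1, which held for 1.03%. Of these, 6 had a mean below -2, against 0.155% of all genes. These counts restate or follow from how the genes were chosen. All 9 varied more between mice than most genes. Their SD ran from 0.46 for Ak1 to 1.36 for Cox8b among the genes with 4 values, where the median SD of all such genes was 0.18, and 90.5% (Ak1) to 99.7% (Cox8b) of those genes had a smaller SD. The mean over the fast genes was below the mean over the cardiac genes on each array. The differences were -2.08, -3.89, -0.44 and -2.21 in mice 1 to 4, though in mouse 3 the fast value is that of Myl1 alone. The sign in mouse 3 rests on Myh6: without it the cardiac mean there was -3.31, below Myl1 at -2.80. In that mouse Myl1 lay above Nppb by 0.58 and above Cox8b by 0.60. Against the shared genes the corresponding differences of the fast genes were -1.95, -3.21, -0.18 and -1.84. The gap was widest in mouse 2, where the cardiac and shared genes other than Ak1 came nearest to 0 or passed it and Tnnc2 had its lowest value.

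The likeness of 2 genes was measured as the root mean square difference of their log ratios over the arrays, which is 0 for equal values. Nppb and Cox8b differed by 0.12 over 4 arrays, Nppb and Cox7a1 by 0.15, Hrc and Cox7a1 by 0.18, and Nppb and Hrc by 0.22. Of 6056 other genes with 4 values, the 3 nearest to Cox8b were Nppb, Cox7a1 and Hrc. The fourth was Ucp1, the uncoupling protein that marks brown fat, at 0.43, and the next were Igf2bp1, an RNA-binding protein, at 0.60 and the brown fat gene Cidea at 0.80. This ranking around Cox8b was added after the values were seen. Each array's values share 1 library, and genes far below 0 have few neighbours by this measure. Ldb3 and Ak1 were nearest to each other among the members (0.63). Myh6 was far from Nppb (2.09), Hrc (2.10), Cox7a1 (2.13) and Cox8b (2.11). The fast genes Tnnc2 and Myl1 were as far from each other (2.11 over 3 arrays).

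Upstream sequence is shown for Hrc, Cox7a1 and Cox8b, which kept close together over the mice, and for Tnnc2, which lay lowest. Each stretch is the 250 bases before the RefSeq start site on the gene's strand (assembly GRCm38.p6), with matches to the E-box CANNTG, the motif bound by muscle factors such as MyoD, in capitals. The stretches are Hrc at chr7:45335019-45335268 (+), Cox7a1 at chr7:30183921-30184170 (+), Cox8b at chr7:140900447-140900696 (-) and Tnnc2 at chr2:164779735-164779984 (-).
Hrc: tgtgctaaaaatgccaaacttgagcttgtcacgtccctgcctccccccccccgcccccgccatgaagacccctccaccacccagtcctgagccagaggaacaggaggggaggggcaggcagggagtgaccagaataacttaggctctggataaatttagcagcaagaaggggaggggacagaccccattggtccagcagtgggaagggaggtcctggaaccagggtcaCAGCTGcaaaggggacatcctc
Cox7a1: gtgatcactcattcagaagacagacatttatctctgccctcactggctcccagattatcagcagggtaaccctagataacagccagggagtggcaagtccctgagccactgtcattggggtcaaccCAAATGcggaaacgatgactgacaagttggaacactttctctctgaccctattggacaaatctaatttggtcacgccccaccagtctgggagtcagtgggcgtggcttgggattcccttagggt
Cox8b: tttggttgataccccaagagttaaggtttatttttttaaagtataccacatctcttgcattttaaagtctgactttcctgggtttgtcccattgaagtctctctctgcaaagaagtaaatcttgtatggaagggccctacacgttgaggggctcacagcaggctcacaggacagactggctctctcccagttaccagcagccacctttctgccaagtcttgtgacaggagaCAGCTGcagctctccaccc
Tnnc2: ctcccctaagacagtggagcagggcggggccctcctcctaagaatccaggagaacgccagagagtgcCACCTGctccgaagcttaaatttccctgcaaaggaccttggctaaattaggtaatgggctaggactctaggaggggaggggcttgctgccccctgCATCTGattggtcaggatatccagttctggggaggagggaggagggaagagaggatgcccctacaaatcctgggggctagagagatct

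The RefSeq table held 13 windows of 300 bases for the 9 genes, from 250 before to 50 after a start, and motifs were searched on both strands. An E-box was found for 8 of the 9 genes, all but Ldb3, in 11 of the 13 windows, and 72.3% of all 32851 windows held one. The MEF2 consensus matched in 1 of the 13 windows, of Ak1, against 3.19% of all windows. The CArG box of serum response factor matched in 2 of the 13, both of Ldb3, against 1.63%. The motif TATAAA was present for 5 members, in 5 of the 13 windows, and in 13.6% of all windows. For Myh6, Cox8b and Ak1 it begins 1, 4 and 21 bases after a start. The motif AGATAA, which GATA factors bind, was present for Nppb and Cox7a1, in 2 of the 13 windows, and in 11.2% of all windows. The matches are shown in capitals within 30 bases, for Ldb3 at chr14:34588697-34588726 (-), for Ak1 at chr2:32625447-32625476 (+) and for Nppb at chr4:147985804-147985833 (+). The Ldb3 match lies in both of its overlapping windows, 35 and 109 bases before the starts. The Ak1 match begins 20 bases after the second of its 4 starts and overlaps a TATAAA match, and the Nppb match begins 84 bases before the start. These letters describe the sequence and were not tied to the measured ratios.
Ldb3, CArG box: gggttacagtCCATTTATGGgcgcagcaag
Ak1, MEF2 consensus: gctgacagccTTATAAATAGtcgcctttgc
Nppb, AGATAA: ctgataaatcagAGATAAccccacccctac

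Other genes of fast skeletal muscle had list medians of -2.65, -0.75, 0.008 and -0.22 in mice 1 to 4. Of 23 listed genes outside the 9, 20 had a named probe and 15 were tested, and the other 5 had only 1 or 2 values. None of the 15 passed limma at a Benjamini-Hochberg adjusted p of 0.05, with 6 at an unadjusted p under 0.05. Among all genes tested 4.81% passed below 0 and 7.69% above, and 31.8% had an unadjusted p under 0.05. The median of the 15 was -0.75, against 0.0015 over all genes tested.

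Values below -1 were found for 11 of 14 of these fast genes in mouse 1, 7 of 15 in mouse 2, 0 of 13 in mouse 3 and 3 of 12 in mouse 4. Over all genes tested the shares below -1 on these arrays were 2.54%, 2.36%, 2.14% and 0.663%. Tnnt3, the fast troponin T, had -5.13, -4.52, 0.10 and -1.56 in mice 1 to 4 (limma adjusted p = 0.0965). Acta1, skeletal muscle actin, had -2.87, -2.33, -0.16 and -0.90 (limma adjusted p = 0.0768). Mylpf, the regulatory light chain of fast myosin, had values in mice 1 and 2 only, -3.96 and -3.10. Thus in mouse 3 the 13 other fast genes with a value lay between -0.20 and 0.28, while Myl1 lay at -2.80. Tnnc2 has no value there. Nor have some other fast genes that were low in mice 1 and 2, such as Atp2a1 (-4.14 and -2.40) and Myot (-3.57 and -1.84). In mouse 4, where Myl1 lay at -2.49, the other fast genes had a median of -0.22. The low values of Myl1 in mice 3 and 4 were thus not shared by most other fast markers with a value there.

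Of 5 slow skeletal and ventricular genes with 4 values, 4 were lowest in mouse 1 and 1, Csrp3, in mouse 3. Over all 6057 genes with 4 values, 1637 were lowest in mouse 1 and 1575 in mouse 3. Of 11 listed, 10 had a probe and 6 were tested, of which 0 passed limma and 3 had an unadjusted p under 0.05, with a median of -0.58. The list medians were -1.65, -0.41, -0.22 and -0.05 in mice 1 to 4. Myl3, the slow and ventricular essential light chain, had -2.11, -1.65, -0.23 and -0.03 (limma adjusted p = 0.135).

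Other cardiac genes had list medians of -1.03, 0.17, -0.47 and -0.23 in mice 1 to 4. Values below -1 were found for 5 of 10 in mouse 1, 0 of 10 in mouse 2, 4 of 10 in mouse 3 and 0 of 9 in mouse 4. The shares below -1 over all genes tested were 2.54%, 2.36%, 2.14% and 0.663%. Of 21 listed genes outside the 9, 18 had a probe and 10 were tested. None passed limma, 2 had an unadjusted p under 0.05, and the median was -0.54. Of the 10 means 8 were below 0, against 4171 of 8384 over all genes tested. Actc1, cardiac actin, had -1.57, 0.80, -2.45 and -0.91 in mice 1 to 4 (limma adjusted p = 0.211, and 0.0452 without mouse 2). Myl7, the atrial regulatory light chain, had -1.19, 0.07 and -2.20 in mice 1 to 3 and no value in mouse 4 (limma adjusted p = 0.160). Myl4, the atrial essential light chain, had -0.87, 0.44, -2.49 and -0.87 (limma adjusted p = 0.196). All 3 were lowest in mouse 3 and above 0 in mouse 2, as Nppb and Hrc were lowest in mouse 3 too, though below 0 in mouse 2. Over the 9 other cardiac genes with 4 values, 5 were lowest in mouse 1, as Myh6 was, 3 in mouse 3 and 1 in mouse 4, and 6 were highest in mouse 2. Over all 6057 genes with 4 values, 1637 were lowest in mouse 1, 1575 in mouse 3 and 1072 in mouse 4. The highest value was in mouse 2 for 1443 of all these genes. Pln, the phospholamban that restrains the calcium pump, had -1.79, 0.13, -1.42 and -0.40 (limma adjusted p = 0.134) and was chosen after its values were seen. Of the defining genes, Tnni3 had a value in mouse 2 only (0.13), Tnnt2 had a probe with no value, and Nppa was not analysed here.

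**Figure D2:**
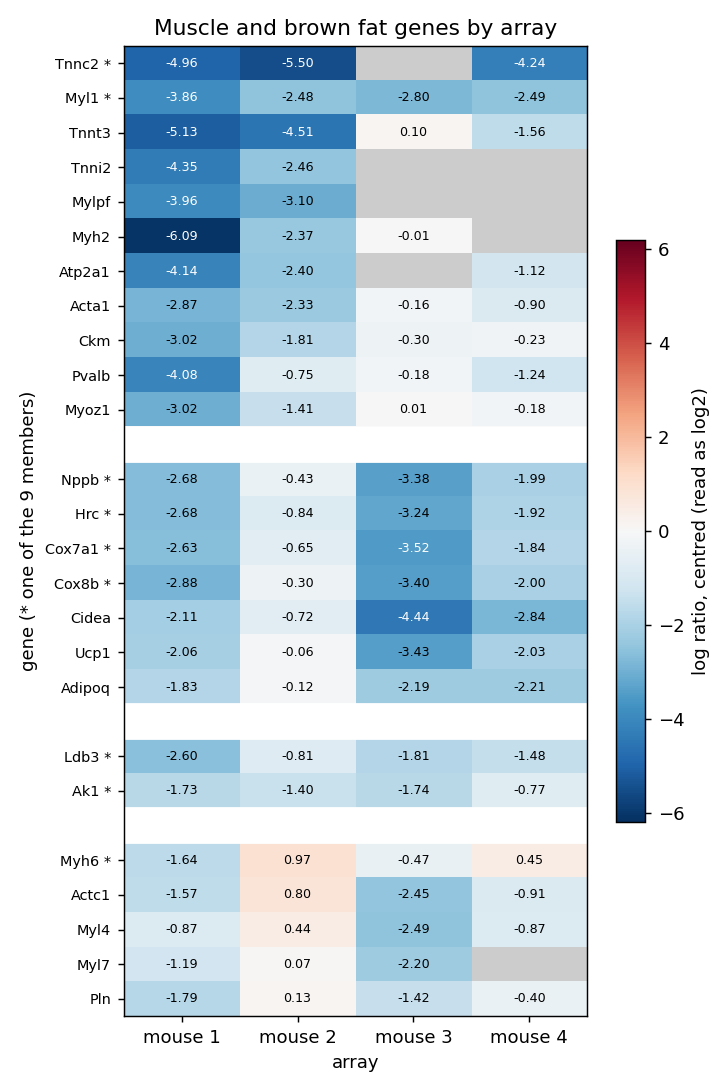
Log ratio of the 9 members (asterisks) and of other muscle and fat genes (rows) in mice 1 to 4 (columns), from blue below 0 to red above 0, centred per array and read as log2, with grey for no value. The row groups were set after the values were seen: of the upper rows, Tnnt3, Myh2, Acta1, Ckm, Pvalb and Myoz1 lie between -0.30 and 0.10 in mouse 3, whereas Nppb, Hrc, Cox7a1, Cox8b, Cidea, Ucp1 and Adipoq are closest to 0 in mouse 2.

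Genes of the shared sarcomere and Z disc lay close to 0. Of 32 listed genes outside the 9, 22 had a probe and 15 were tested, with 8 means below and 7 above 0 and a median of -0.01. Cryab, a small heat shock protein that binds desmin and other filaments, passed above 0 at 0.63 ± 0.38 (SD, n = 4; limma adjusted p = 0.0482), higher than 0 in 4 of 4 mice. It was lost without mouse 1, 3 or 4, at adjusted p up to 0.134. Des, the muscle intermediate filament desmin, had -0.17 ± 0.37 (SD, n = 4; limma adjusted p = 0.457). Ldb3 at -1.67 lay below every other tested gene of its list, but it was selected for its low mean, so this place follows from that choice. The next was Cav3, the muscle caveolin, at -0.64 (n = 3), chosen after its value was seen.

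Of 21 listed genes of muscle energy supply outside the 9, 20 had a probe and 12 were tested. Of the 12, 11 had a mean below 0, against 4171 of 8384 over all genes tested. The median of the 12 was -0.63. Esrra, a nuclear receptor that drives mitochondrial genes, passed below 0 at -0.78 ± 0.33 (SD, n = 4; limma adjusted p = 0.0239), below 0 in 4 of 4 mice. It was lost without mouse 1, 2 or 3, at adjusted p up to 0.0772. Ckm, the muscle creatine kinase, had -3.02, -1.82, -0.30 and -0.23 in mice 1 to 4 (limma adjusted p = 0.125), an order like that of Acta1 in mice 1 and 2. Mb, the muscle oxygen carrier myoglobin, had values in mice 1 and 2 only, 0.21 and 0.36. Of 24 muscle transcription factors, 14 were tested, with a median of -0.06. Hand1, a factor of heart development, passed below 0 at -0.48 ± 0.06 (SD, n = 3; limma adjusted p = 0.0288), though not with mice 1 and 2 and mice 3 and 4 treated as blocks, nor in the fit without mouse 4, where it has no value (adjusted p up to 0.0569).

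Over the 5 striated muscle lists together, 58 genes outside the 9 were tested. Of these, 1 passed limma below 0 and 1 above, against 4.81% and 7.69% of all genes tested. The median of the 58 was -0.39, and 45 of their means were below 0, against 4171 of 8384 over all genes tested. The list medians differed between the mice: over these 58 genes they were -0.94, 0.03, -0.19 and -0.15 in mice 1 to 4, against -0.001, 0.003, 0.012 and 0.010 over all genes tested. Smooth muscle, which airways and vessels of the lung contain, gave 0 of 8 tested genes past limma, with 1 at an unadjusted p under 0.05 and a median of -0.03. Tagln, an actin-binding protein of smooth muscle, had 0.18 ± 0.35 (SD, n = 4; limma adjusted p = 0.433). No value of a tested smooth muscle gene in any mouse was below -0.38. Acta2 had values in mice 1 and 2 only (0.59 and 0.09) and Myh11 in mouse 1 only (-0.02).

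**Figure D3:**
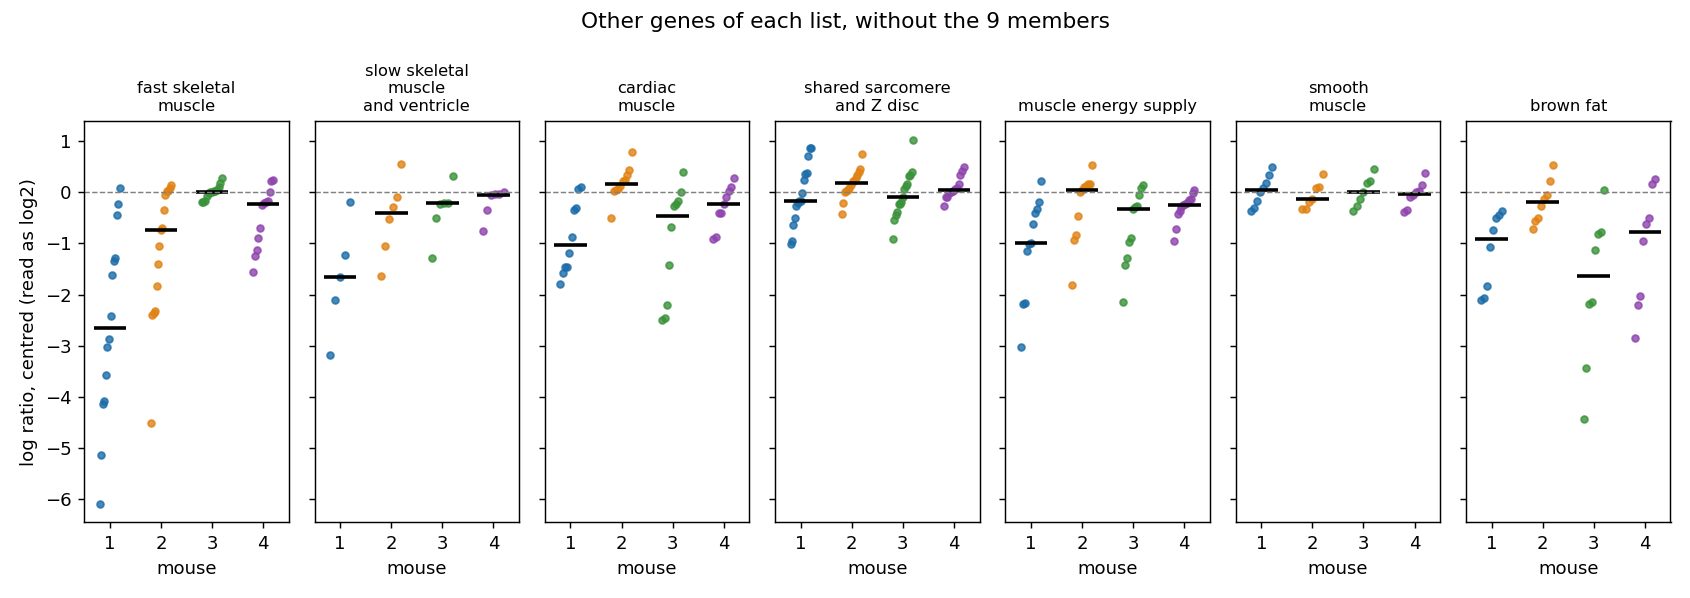
Log ratio (vertical axis, centred per array and read as log2) of the tested genes of 7 lists outside the 9 members, in mice 1 to 4, with 1 point per gene and the list median as a black bar. Fast skeletal genes reach down to -6.09 in mouse 1 but not below -0.20 in mouse 3, the brown fat list reaches its lowest value in mouse 3, and smooth muscle genes stay near 0.

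Cox7a1 and Cox8b also stand on the brown fat list, and some but not all of its other genes shared their order over the mice. Of 5 other genes of this list with 4 values, 3 were lowest in mouse 3 (Cidea, Ucp1 and Gpd1), 1 in mouse 4 (Adipoq) and 1 in mouse 1 (Dio2). Of the 5, 4 were highest in mouse 2. Over all 6057 genes with 4 values, 1575 were lowest in mouse 3, 1072 in mouse 4 and 1637 in mouse 1. The highest value was in mouse 2 for 1443 of all these genes. Dio2, a deiodinase, had -0.74, -0.56, 0.05 and 0.17 in mice 1 to 4, and Plin5, a lipid droplet protein, a mean of 0.01 (n = 3), and both were named after their values were seen. Of 15 listed genes outside the 9, 12 had a probe and 9 were tested. Of the tested genes 4 passed limma below 0 and 0 above, against 4.81% and 7.69% of all genes tested. Those of the list that passed were Cidea, a lipid droplet protein, at -2.53 ± 1.55 (SD, n = 4; limma adjusted p = 0.0424), and Adipoq, the hormone adiponectin, at -1.59 ± 0.99 (SD, n = 4; limma adjusted p = 0.0444), with Plin4 and Gpd1. Plin4, a lipid droplet coat protein, had -0.79 ± 0.29 (SD, n = 3; limma adjusted p = 0.0299) and Gpd1, a glycerol phosphate dehydrogenase, -0.54 ± 0.21 (SD, n = 4; limma adjusted p = 0.0269). Adipoq, Plin4 and Gpd1 are genes of fat cells in general, and Cidea alone of the 4 was taken here as a marker of brown fat. Of the other such markers, Ucp1 and Dio2 did not pass, and Elovl3 and Prdm16 had a probe with no value. Without mouse 1, 3 or 4 none of the 4 passed, at adjusted p up to 0.129, and Plin4 has too few values for a test without these mice. With mice 1 and 2 and mice 3 and 4 as blocks, 0 of the 4 passed, at limma adjusted p from 0.0505 (Plin4) to 0.0866 (Adipoq).

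Ucp1 had -2.06, -0.06, -3.43 and -2.03 in mice 1 to 4, an order like that of Cox8b with its lowest value in mouse 3 and its highest in mouse 2 (limma adjusted p = 0.0612, and 0.0241 without mouse 2). The list medians were -0.90, -0.20, -1.63 and -0.79 in mice 1 to 4. Values below -1 were found for 4, 0, 5 and 3 of the 8 genes of this list with a value in each mouse. The shares below -1 over all genes tested were 2.54%, 2.36%, 2.14% and 0.663%. The part of brown fat in the values of Nppb, Hrc, Cox7a1 and Cox8b was not tested.

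Muscle genes were also set against related genes on the same array, some with broad expression and some of muscle themselves. Such differences describe unequal log ratios but not which gene changed. Myl1, Hrc, Cox7a1, Cox8b, Ldb3 and Ak1 were selected for low means in these same arrays. That they lay below partners near 0 follows largely from that choice and is only a description. Myl1 lay below Myl6, the light chain of smooth muscle and non-muscle myosin, on 4 of 4 arrays, by a mean difference of -2.77 ± 0.64 (SD, n = 4). Myl6 itself had -0.14 ± 0.12 (SD, n = 4; limma adjusted p = 0.258). Hrc lay below the calcium-storing calsequestrins Casq1 and Casq2 on all 4 arrays, by means of -2.05 and -2.32, with Casq1 at -0.12 and Casq2 at 0.15. Both calsequestrins act in the same compartment as Hrc, in skeletal and in cardiac muscle, and neither passed limma (adjusted p = 0.457 and 0.491).

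Cox7a1 lay below Cox7a2l, a related factor of supercomplexes, on 4 of 4 arrays by -1.96 ± 1.28 (SD, n = 4), and Cox7a2l had -0.20 ± 0.13 (SD, n = 4; limma adjusted p = 0.136). Cox8a, the ubiquitous counterpart of Cox8b, passed below 0 at -0.58 ± 0.06 (SD, n = 3; limma adjusted p = 0.0205). The difference Cox8b minus Cox8a was lowest in mouse 3, at -2.75, and turned to 0.26 in mouse 2, and Cox8a had no value in mouse 4. Cox6a1, the ubiquitous isoform of a further subunit of the enzyme, also passed below 0, at -0.96 ± 0.43 (SD, n = 4; limma adjusted p = 0.0246, lost without mouse 1, 2 or 4 at up to 0.0644). Values below 0 were thus found for muscle and for ubiquitous isoforms of this enzyme, at different sizes.

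Ldb3 lay below Pdlim3 and Pdlim1, other proteins with PDZ and LIM domains, on all 4 arrays by means of -1.96 and -1.97. Ak1 lay below the mitochondrial Ak3 on 4 of 4 arrays by -1.74 ± 0.64 (SD, n = 4). Pdlim3 (0.28), Pdlim1 (0.30) and Ak3 (0.33) did not pass limma (adjusted p from 0.0636 to 0.178). Ckm lay below the brain-type Ckb by -1.99 ± 0.95 (SD, n = 4), with Ckb at 0.65 (limma adjusted p = 0.0890). Pgam2, the muscle phosphoglycerate mutase, differed from Pgam1 by -0.34 ± 0.74 (SD, n = 4), which is within the spread between mice, and Pgam1 itself passed below 0 at -0.63 ± 0.25 (SD, n = 4; limma adjusted p = 0.0238, lost without mouse 1, 3 or 4 at up to 0.0782). Myh6 differed from Myh10, a non-muscle myosin heavy chain, by -0.19 ± 1.47 (SD, n = 3), and Myh10 had 0.11 ± 0.11 (SD, n = 3; limma adjusted p = 0.433).

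**Figure D4:**
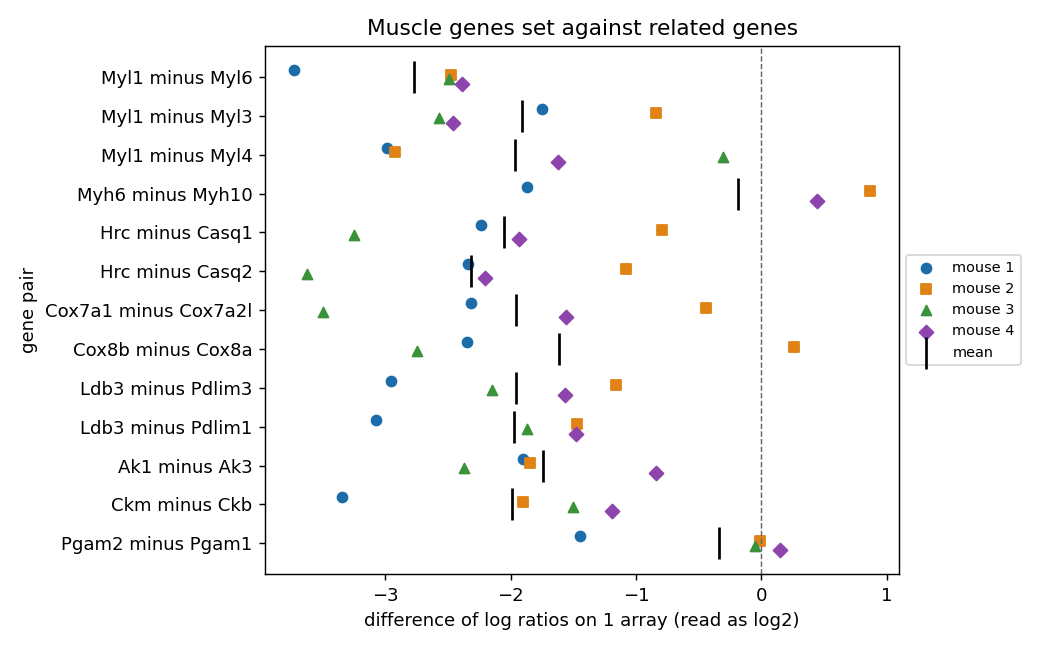
Difference of log ratios between a muscle gene and a related gene on the same array (horizontal axis, read as log2) for 13 pairs, with mice 1 to 4 as symbols and the mean as a black bar. Myl1, Hrc, Cox7a1, Ldb3 and Ak1 lie below their partners on every array, while Cox8b is above Cox8a in mouse 2 and Myh6 lies on both sides of Myh10. These members other than Myh6 were selected for low values.

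Outside the muscle, fat and partner lists, the genes most like the 3 groups of members were searched among 5980 genes with 4 values by the root mean square difference from the group's mean on each array. For the mean of the fast genes none came close. The nearest were the calprotectin gene S100a8 (1.78), S100a4 (1.83), the antimicrobial lectin gene Reg3g (1.92), S100a9 (1.99) and the ATP synthase gene Atp5k (2.16). That mean joins Tnnc2 and Myl1, which differed by 2.11 over 3 arrays, and is Myl1 alone in mouse 3. Myl1 by itself was nearer to S100a8 (1.15) and S100a9 (1.285). For the mean of the cardiac genes the nearest were Igf2bp1 (0.47), the irisin precursor gene Fndc5 (0.49), Atp5j (0.58), Ndufa1 (0.62) and Ndufc1 (0.64), the last 3 being subunits of ATP synthase and of respiratory complex I. The cardiac mean also joins unlike genes, since Myh6 differed from Nppb by 2.09 and from Hrc by 2.10. For the mean of the shared genes the nearest were Igf2bp1 (0.55), Atp5j (0.60), Atp5k (0.62), the cytochrome c oxidase gene Cox6c (0.66) and the complex I gene Ndufa5 (0.72). Igf2bp1 had -2.07, -0.07, -3.27 and -1.16 in mice 1 to 4, the order of Nppb, Hrc, Cox7a1 and Cox8b. Cox6c had -1.81, -1.38, -1.73 and -1.07, with mouse 4 closest to 0 as for Ak1.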

How the data were processed

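Per the labels, each of 4 arrays compared amplified lung RNA of 1 bleomycin-treated mouse with 1 control pool. The authors deposited 1 log ratio per spot, read here as log2 from its range (-6.1 to 4.36). The sources used here give no scanner, dyes, background correction, normalization or rule for empty spots. The labels do not say whether replicate mice were treated together. The number of arrays limits the precision, and the single pool leaves out the spread between control mice.

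Arrays were centred on their medians. A platform annotation named 14722 of 17280 spots with 1 gene, and probes of a symbol were averaged. Genes with at least 3 values were tested by limma 3.58.1 in R 4.3.3 (mean ratio against 0, lmFit with an intercept, eBayes, two-sided, Benjamini-Hochberg over 8384 genes, threshold 0.05), a step tested on simulated data. The members, lists and pairs were chosen with earlier results of these data known. Named were the members, up to 6 genes per list past the test with 1 sign, partners with at least 3 values, 17 defining genes and the 5 nearest genes per group. Nppa and Actn2, with no named probe, were not analysed here. Columns not used numbered 0.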

Additional observations from a re-analysis of the deposited data

Results flagged for a closer look

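Among the members and the other named genes with 4 values, 46 in all, 2 had 1 mouse far from the others (Dixon's criterion at 95%, critical value 0.829). Chance flags about 1 in 20 such groups. Casq1, the skeletal calsequestrin, was at -0.45 in mouse 1, while the other mice lay between -0.05 and 0.01. Pdlim3, a Z disc protein, was at 0.086 in mouse 4, while the other mice lay between 0.34 and 0.35. None of the 8 members with 4 values was among them.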

How the results depend on the processing

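The means of all 9 members moved by less than 1 SD between mice without centring, with probe medians, with scaled arrays and without any 1 mouse. Of these, Myh6 alone changed sign, to 0.32 without mouse 1 and lying between -0.55 and 0.32 over the alternatives. Tnnc2 has 3 values and gave none without mouse 1, 2 or 4 or where all 4 values were required. No paired analysis was possible because there is 1 group and a shared pool. With mice 1 and 2 and mice 3 and 4 as a random block (consensus correlation 0.30), pairs known from an earlier look at these data, 116 genes passed below 0 and 286 above, against 403 and 645. The counts without 1 mouse were 78 to 151 below and 193 to 386 above. Outside the members, the block left 0 genes of energy supply, the Z disc, the transcription factors and brown fat and 1 partner gene (Cox8a, against 3 partners). Leaving out 1 mouse gave 0 to 1 energy genes below 0, 0 to 1 Z disc genes above, 0 transcription factors, 0 to 5 brown fat genes, 0 to 1 partners, and 0 to 1 cardiac genes, the 1 being Actc1 without mouse 2. Arrays scaled to 1 median absolute deviation gave 1 fast gene (Atp2a1, limma adjusted p = 0.0370, against 0.0526). A value on all 4 arrays gave 1 smooth muscle gene (Itga8, limma adjusted p = 0.0486) and 0 transcription factors, since Hand1 has 3 values. Of 367 values of 43 named genes under alternatives, 314 kept their side of the threshold, 47 lost it and 6 gained it, and none reversed. Signal over background is not part of the values, so dim spots could not be judged.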
